A study of Mus musculus with 22 samples.

Results

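A set of 9 genes of pancreatic fluid secretion was followed through 22 whole-pancreas libraries of the mouse. They encode the water channels Aqp8, Aqp12, Aqp1 and Aqp5, the bicarbonate and chloride transporters Slc4a4 and Slc26a6, the sodium-potassium-chloride cotransporter Slc12a2, the potassium channel Kcnn4 and the chloride channel Ano1. Each gene was taken by symbol from the row names of the raw count table, which gave 9 of 21450 symbols and 12 of 30146 probes, 3 of them for Slc4a4, 2 for Slc26a6 and 1 for each of the others. The members were chosen by their counts in these same libraries, since earlier results had shown that their levels differ between the library classes below, so those levels are described and not tested.

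The pancreas secretes digestive enzymes in a watery, bicarbonate-rich juice. Acinar cells release chloride-rich fluid through apical chloride channels, which is driven by chloride uptake across the basolateral membrane and by potassium exit, and water follows through aquaporins. Duct cells take up bicarbonate with sodium at their basolateral side and exchange it for chloride at their apical side, where Cftr is the main anion channel.

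All mice were C57Bl/6. Dams received subcutaneous injections 2 times a week, from before mating until they gave birth, of corn oil (labelled Control) or of the dioxin TCDD at 20 ng/kg/d, and the pups were exposed only through them. Whole pancreas of dams and of 1 male and 1 female pup per litter was collected on the day of birth, and by the numbers in the sample titles the pups of 1 litter share a number and the dam with that number is their mother. The sources used here do not give the age of the dams. Transcripts were counted by TempO-Seq, in which a pair of short detector probes is joined on its target RNA and the joined products are sequenced.

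Stage labels and stage genes disagreed in 8 of the 22 libraries, so the libraries are described by class. A library was called newborn type where its summed count for Afp, a fetal serum protein, exceeded that for Pnlip, the pancreatic lipase that rises after birth, and adult type otherwise. This gave 14 newborn-type libraries (8 labelled Control and 6 labelled TCDD, of which 2 and 2 carried a dam label) and 8 adult-type libraries (2 control dams, 2 TCDD dams and 4 TCDD pups). Afp lay between 468 and 1487 CPM, the count scaled by the library total, in the newborn-type libraries and between 0 and 1.25 CPM in the adult-type ones. The files do not tell which libraries, if any, also carry an exchanged chemical label. Adult-type libraries labelled Pup numbered 0 under Control and 4 under TCDD, whereas newborn-type libraries labelled Dam numbered 2 under each. The cause of the disagreement between stage labels and stage genes was not tested. The TCDD comparisons below therefore rest on labels that may be crossed. Cyp1a1, a gene that dioxins induce, was summed over its 3 probes. It gave 0 to 9 counts, with a median of 2.5, in the 10 libraries labelled Control. In the 12 labelled TCDD it gave 0 to 29, with a median of 4. Library totals ran from 11223816 to 34911410 counts, at which 3 counts, taken as the floor of detection, correspond to 0.0859 to 0.267 CPM. The floor covers counting error only, since the reads carry no molecular identifiers. In 3 libraries more probes had a count than in the rest of their class, namely TCDD dam 11 and TCDD male pup 8 with 22786 and 22871 probes beside 17614 to 19072 in the other 6 adult-type libraries, and control female pup 2 with 26420 beside 21498 to 22592 in the other 13 newborn-type libraries.

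The classes differ in how counts are shared among genes, and every class ratio below depends on that. The 20 highest probes took 69.8% to 74.7% of the counts in adult-type libraries and 47.1% to 59.7% in newborn-type ones, and the summed acinar marker list lay at 290300 to 323200 CPM against 186600 to 241400 CPM. Over the 14503 probes with a mean of at least 1 CPM, the median log2 ratio of newborn type over adult type was 1.91 in CPM, or 3.77-fold. After TMM scaling, which sets library sizes so that most probes are level, that median was 0.03, and with the size factors of DESeq2 it was 0.09. Each member is therefore given in CPM and in TMM-scaled CPM, with the median of these 14503 probes as reference. Where the classes are compared below, all probes means these 14503. Levels are not compared between genes, because capture differs from probe to probe. The tissue is bulk, so fewer cells of a type and less RNA per cell cannot be told apart.

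Stretches upstream of 3 aquaporin genes are shown because these 3 genes represent the patterns described below: Aqp1 lay above the median class ratio, Aqp8 on it and Aqp12 under it. Sequences and positions are those of the RefSeq promoter table for GRCm38.p6, which held windows for 8 of the 9 genes. All 3 genes lie on the plus strand, and the stretches end just upstream of the first transcribed base. The Aqp1 stretch is chr6:55336049-55336298 and the Aqp12 stretch is chr1:93006084-93006333, and neither touches an annotated gene in GENCODE M21. The Aqp8 stretch, chr7:123462044-123462290, stops where the annotated first exon begins. Capitals mark CANNTG, the E-box core that basic helix-loop-helix factors recognise, searched on both strands.
Aqp1 upstream stretch: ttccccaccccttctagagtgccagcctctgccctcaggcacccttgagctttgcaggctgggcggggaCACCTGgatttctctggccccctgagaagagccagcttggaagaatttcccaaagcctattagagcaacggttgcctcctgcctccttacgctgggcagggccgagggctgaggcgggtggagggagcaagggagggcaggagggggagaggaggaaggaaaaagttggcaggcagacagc
Aqp8 upstream stretch: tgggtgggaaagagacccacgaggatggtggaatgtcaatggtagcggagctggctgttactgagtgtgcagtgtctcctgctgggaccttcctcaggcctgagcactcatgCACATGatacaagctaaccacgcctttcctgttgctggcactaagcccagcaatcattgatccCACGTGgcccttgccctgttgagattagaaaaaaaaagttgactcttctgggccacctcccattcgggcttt
Aqp12 upstream stretch: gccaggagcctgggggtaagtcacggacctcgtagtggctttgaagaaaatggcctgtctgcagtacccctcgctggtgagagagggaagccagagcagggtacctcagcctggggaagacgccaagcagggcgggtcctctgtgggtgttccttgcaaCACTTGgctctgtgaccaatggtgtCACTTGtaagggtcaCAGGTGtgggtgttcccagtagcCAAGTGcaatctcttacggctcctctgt
The Aqp12 stretch held 4 E-box cores, the Aqp8 stretch 2 and the Aqp1 stretch 1. These numbers did not follow the class pattern over the other members. The window of Slc26a6, which had the pattern of Aqp12, held 0 E-box cores. The windows of Slc4a4, which had the pattern of Aqp1, held 0 and 1. Those of Aqp5, Kcnn4 and Ano1 held 1 each. Of all 32851 upstream windows of 250 bases in the table, 66.2% held at least 1, 31.8% at least 2 and 3.84% at least 4. The letters GCGTG, the core bound by the dioxin receptor Ahr with its partner Arnt, were also searched on both strands. They occurred 1 time in the Aqp8 window and not in the Aqp1 and Aqp12 windows, and 28.2% of all windows held them. Among the other members they occurred 1 time in 1 Slc4a4 window and 2 times in the Aqp5 window. No GCGTG match shared a base with an E-box core in these windows. A match is a run of letters and not a site shown to be bound.

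Aqp12, a water channel of acinar cells that sits on internal membranes, was higher in the adult-type libraries after TMM scaling, as was Slc26a6 among the transporters. In CPM it measured 17.8 at lowest, 32.2 at the median and 38.6 at highest in the 14 newborn-type libraries, and 37.3, 40.5 and 46.3 in the 8 adult-type ones. The classes touched only at the top of the newborn range, and the adult-type libraries varied little, with a coefficient of variation of 6.78% against 19.8%. In TMM-scaled CPM the newborn range of 13.8 to 24.8 and the adult range of 69.6 to 115 were far apart, with a mean 4.93-fold higher in the adult type. Its log2 ratio of newborn over adult type was -0.38 in CPM and -2.30 after TMM scaling, which in both cases lies more than 2 log2 units under the median probe. Only 1.21% of the 14503 probes had a lower ratio in CPM. The Aqp12 count per 1000 acinar marker counts was 0.165 at the median of the newborn type and 0.135 in the adult type, and these ranges overlapped.

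Aqp8, the water channel of the acinar apical membrane, went the other way from Aqp12 in CPM and was level after scaling. Its newborn-type libraries read 37.0 CPM at lowest, 52.6 at the median and 76.5 at highest, and its adult-type libraries read 11.04, 13.3 and 15.8. Every newborn-type library was thus above every adult-type library, with means 4.04-fold apart, a log2 ratio of 2.01 that was only 0.10 above the median probe. In TMM-scaled CPM the ranges of 22.5 to 43.1 and 20.5 to 40.1 overlapped almost whole, with a log2 ratio of 0.11. Both acinar aquaporins can also be set against each other inside a library, where no scaling enters. The newborn type had 1.15 to 2.58 Aqp8 counts for each Aqp12 count, with a median of 1.69, and the adult type had 0.239 to 0.403, with a median of 0.326. The ratio differed 5.18-fold between classes without overlap. Aqp8 per 1000 acinar marker counts also differed without overlap, at 0.266 in the newborn type and 0.0445 in the adult type at the median. The summed acinar marker list was higher in the adult type on both scales. Of its 13 genes, 4 were higher in the adult type and 1 in the newborn type in CPM, and 11 and 0 after TMM scaling, beside 0.427% (adult higher) and 74.4% (newborn higher) of all probes in CPM and 10% and 12.6% after TMM scaling. Its part in these differences was not tested.

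Aqp1, a water channel of capillary endothelium, red cells and parts of the duct tree, had the largest class ratio of the members that were detected in every library. Newborn-type libraries held 7.59 CPM at lowest, 12.9 at the median and 17.3 at highest, which were 124 to 309 counts. The adult-type libraries held 0.233, 0.765 and 1.15 CPM from 4 to 22 counts. No adult-type library came near the newborn range, and the means differed 17.7-fold in CPM and 4.69-fold after TMM scaling, with log2 ratios of 4.15 and 2.23. In CPM 93.3% of all probes had a lower ratio. The summed endothelial markers, 10 of 10 of which were higher in the newborn type in CPM and 2 of 10 after TMM scaling, beside 74.4% and 12.6% of all probes, ran from 80.5 to 177 CPM in the newborn type and from 12.6 to 34.8 CPM in the adult type. After TMM scaling the summed list overlapped between classes. Aqp1 per endothelial marker count was 0.113 at the newborn median and 0.0407 at the adult median, again without overlap. The erythroid list ran from 126 to 274 CPM and from 5.08 to 67.9 CPM, and the summed list overlapped after TMM scaling. Of its 10 measured genes, 3 were higher in the newborn type in CPM and 0 after TMM scaling, beside the same shares of all probes. Epb42 was at 0 in all adult-type libraries. Aqp1 per erythroid marker count overlapped between classes with medians of 0.0656 and 0.0439. The part of red cells or vessels in the Aqp1 difference was not tested.

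Aqp5, the apical water channel of salivary and other exocrine glands, was at the floor. It had 12 counts in the newborn type and 5 in the adult type, and 11 of 14 and 7 of 8 libraries held none. TCDD female pup 11 had 9 of the newborn-type counts, and all 5 adult-type counts came from TCDD dam 11, 1 of the adult-type libraries with many probes detected.

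**Figure D1:**
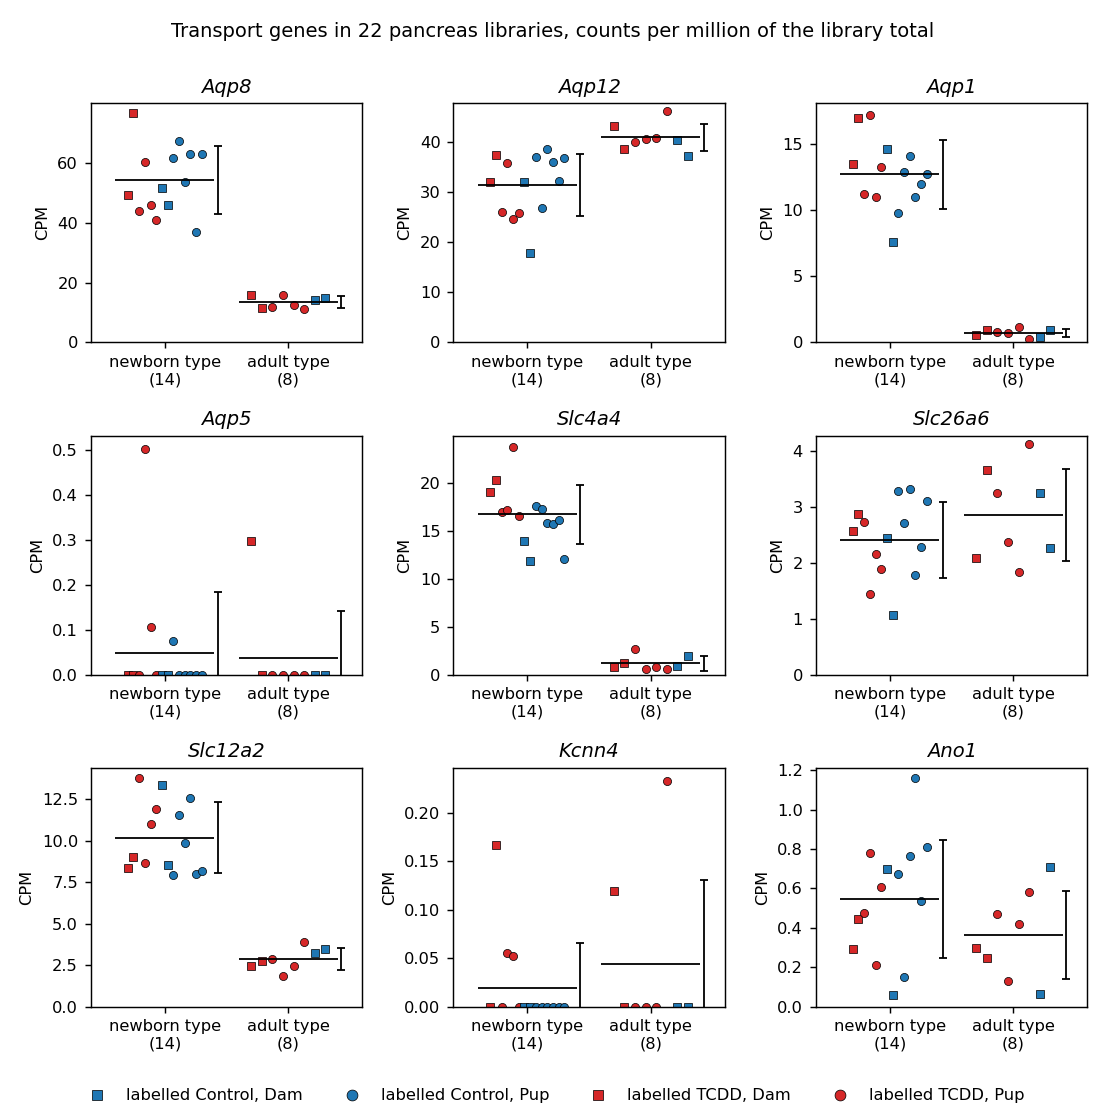
Level of each gene in CPM (linear axis from 0, scale differs by panel) in the 14 newborn-type and 8 adult-type libraries, with the probe of the highest mean count for Slc4a4 and Slc26a6. Points are libraries, horizontal lines are class means and bars are 1 SD to either side. Aqp8, Aqp1, Slc4a4 and Slc12a2 show 2 separate groups of points, Aqp12 and Slc26a6 lie at about 1 height in both classes, and Aqp5, Kcnn4 and Ano1 lie at or near 0.

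Slc4a4 encodes the electrogenic sodium bicarbonate cotransporter through which duct cells take up bicarbonate, and it showed the same pattern as Aqp1. Probe 73086 read 11.9 CPM at lowest, 16.8 at the median and 23.8 at highest in the newborn type, against 0.576, 0.841 and 2.71 in the adult type. The classes did not overlap, and the means differed 14-fold in CPM and 4-fold after TMM scaling. Probe 71244 measured the same gene at a lower level, at 3.18, 5.16 and 6.76 CPM against 0.0581, 0.250 and 0.772, and its log2 ratio of 3.87 was close to the 3.81 of probe 73086. The ratio of both probes to each other inside a library was 3.36 at the newborn median and 3.90 at the adult median, with overlapping ranges. The third probe, 79700, had at most 19 counts in any library and overlapped between classes.

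Between the classes, duct markers as a sum differed in the same direction as Slc4a4. The summed duct list lay at 400 to 756 CPM in the newborn type and 35.6 to 65.04 CPM in the adult type, without overlap on either scale, and of its 9 measured genes 7 were higher in the newborn type in CPM and 5 after TMM scaling, where 1 was higher in the adult type. The shares of all probes higher in the newborn type were 74.4% and 12.6%, so the CPM count is near the background. None of the 9 was at 0 throughout a class. Slc4a4 counts per duct marker count were 0.0255 to 0.0465 in the newborn type and 0.01099 to 0.0725 in the adult type, which overlapped. The part of the duct cell share in the Slc4a4 difference was not tested.

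Slc26a6, the apical exchanger that moves bicarbonate into the lumen in return for chloride, followed Aqp12 and not Slc4a4. Its probe 77193 read 1.06 CPM at lowest, 2.51 at the median and 3.33 at highest in the newborn type, and 1.83, 2.81 and 4.13 in the adult type. These ranges overlapped in CPM, whereas in TMM-scaled CPM they were 0.834 to 2.14 and 4.29 to 10.1, a mean 4.43-fold higher in the adult type. The log2 ratio of newborn over adult type was -0.25 in CPM and -2.15 after TMM scaling, and for the second probe, 76077, it was -0.38 and -2.29. Both probes therefore sat more than 2 log2 units under the median probe on either scale. Per library the counts ran from 14 to 71 for the 2 probes, so counting error is a larger part of their spread than for Aqp8 and Aqp12.

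The counts of the basolateral and the apical bicarbonate carrier thus stood in different proportion in the classes, whatever the scale. They are counts of bulk tissue, and the part of duct and acinar cell shares in this difference was not tested. The newborn type had 0.112 to 0.287 Slc26a6 counts for each Slc4a4 count, with a median of 0.204, and the adult type had 1.45 to 11.6, with a median of 3.58. The medians differed 17.6-fold and no library of one class reached the range of the other. The adult-type values rest on 11 to 50 Slc4a4 counts a library over the 3 probes.

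Slc12a2, the basolateral sodium-potassium-chloride cotransporter that loads secretory cells with chloride, followed Aqp8. It read 7.91 CPM at lowest, 9.43 at the median and 13.8 at highest in the newborn type and 1.86, 2.82 and 3.90 in the adult type. The classes did not overlap in CPM, at a log2 ratio of 1.82, which is 0.09 under the median of all probes. In TMM-scaled CPM the ranges were 4.81 to 8.78 and 4.32 to 9.50, they overlapped, and the log2 ratio was -0.07.

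**Figure D2:**
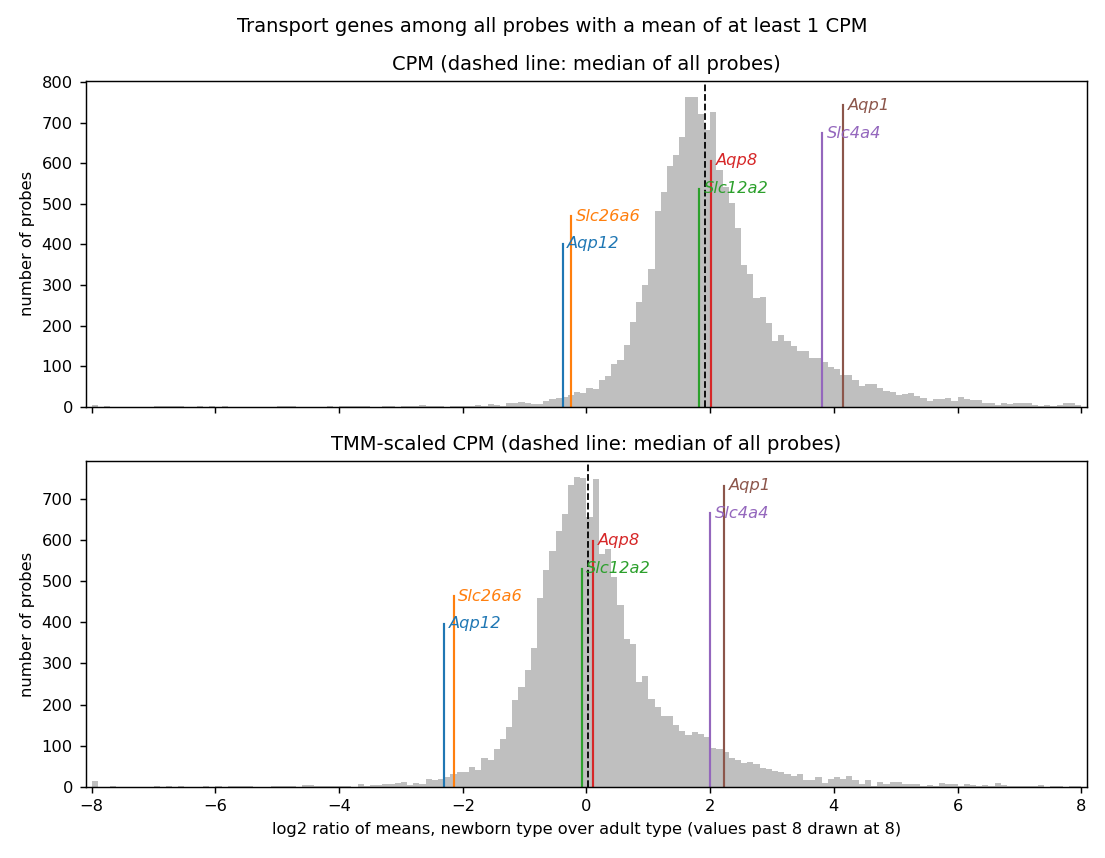
Distribution of the log2 ratio of means, newborn type over adult type, over the 14503 probes with a mean of at least 1 CPM (bars, number of probes), in CPM above and TMM-scaled CPM below. The dashed line is the median probe, at 1.91 and 0.03, and coloured lines mark 6 members, with Aqp12 and Slc26a6 left of the bulk, Slc12a2 and Aqp8 at the median, and Slc4a4 and Aqp1 to the right.

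The 6 well-detected genes thus fell into 3 pairs, Aqp12 with Slc26a6, Aqp8 with Slc12a2, and Aqp1 with Slc4a4. Inside a library the members of a pair kept about the same proportion in both classes. Slc26a6 per Aqp12 was 0.142 at the newborn median and 0.145 at the adult median, Slc12a2 per Aqp8 was 0.185 and 0.232, and Slc4a4 per Aqp1 was 1.74 and 2.63, and all 3 ranges overlapped. Of the 12 ratios across pairs, 11 differed without overlap. The exception was Aqp8 per Slc4a4, at 1.502 to 4.03 in the newborn type and 4.00 to 17.6 in the adult type. Aqp8 per Aqp1 was 4.03 in the newborn type and 19.3 in the adult type at the median, Slc4a4 per Aqp12 was 0.680 and 0.0345, and Slc4a4 per Slc12a2 was 2.18 and 0.523. The pairs were drawn up after these ratios had been seen and describe this table only.

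**Figure D3:**
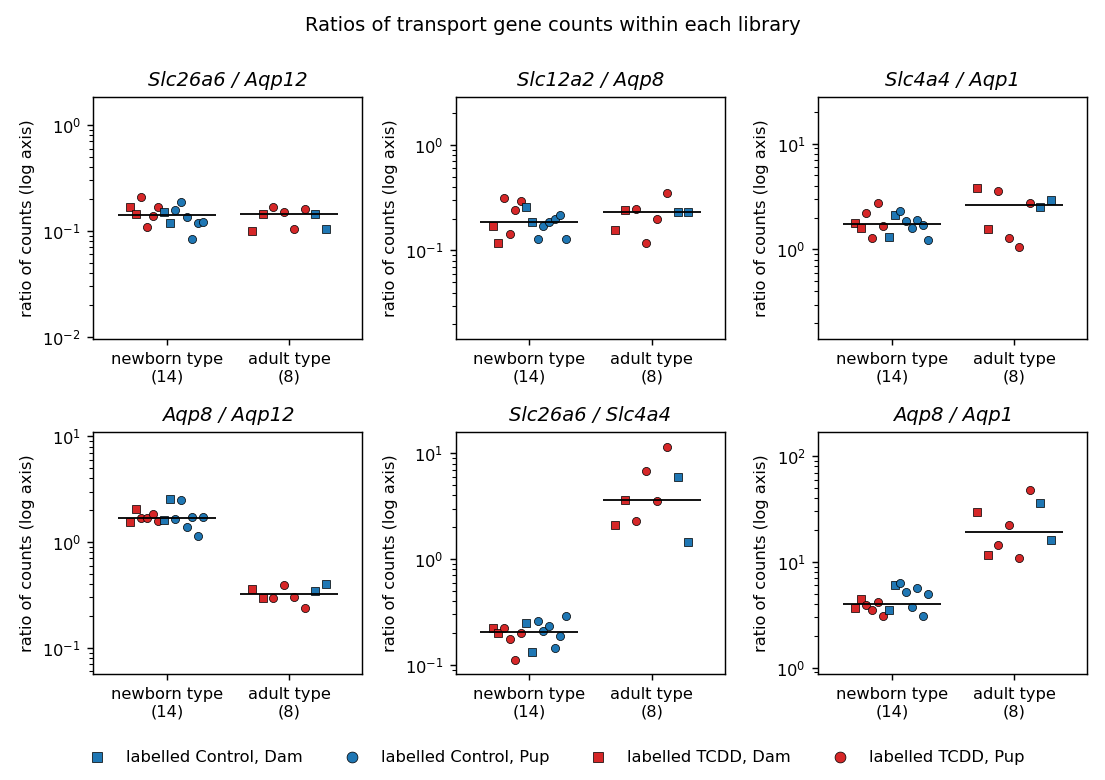
Ratio of counts of 2 genes within each library, summed over probes (log axis), for the 14 newborn-type and 8 adult-type libraries; lines are class medians. The 3 upper panels show overlapping classes, for example 0.142 and 0.145 for Slc26a6 per Aqp12, and the 3 lower panels show separate ones, for example 0.204 and 3.58 for Slc26a6 per Slc4a4.

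Kcnn4, the calcium-activated potassium channel that keeps chloride exit going, gave 5 counts in the newborn type and 6 in the adult type, and 11 of 14 and 6 of 8 libraries held none. All adult-type counts came from the 2 libraries of that class with many probes detected, 2 in TCDD dam 11 and 4 in TCDD male pup 8. Ano1, the calcium-activated chloride channel of the acinar apical membrane, gave 2 to 14 counts per newborn-type library and 1 to 10 per adult-type library. These are 0.0573 to 1.16 CPM with a median of 0.572, and 0.0651 to 0.711 CPM with a median of 0.357. The classes overlapped on both scales, and in either class the lowest libraries were under the floor. Its log2 ratio of newborn over adult type was 0.585 in CPM and -1.29 after TMM scaling. Ano1 also marks interstitial cells of Cajal, whose list of 4 genes lay at 20.9 to 42.1 CPM in the newborn type and 1.83 to 4.37 CPM in the adult type. After TMM scaling the list lay at 14.4 to 23.2 and 5.15 to 10.4. Of the 4 genes, 4 were higher in the newborn type in CPM and 2 after TMM scaling, beside 74.4% and 12.6% of all probes. The part of these cells in the Ano1 level was not tested. Aqp5, Kcnn4 and Ano1 were under a mean of 1 CPM and were left out of the background of 14503 probes.

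By non-overlap of ranges in CPM, 4 of the 9 members were higher in the newborn type (Aqp8, Aqp1, Slc4a4 and Slc12a2) and 0 in the adult type. Of the 14503 probes with a mean of at least 1 CPM, 74.4% and 0.427% were. After TMM scaling 2 of 9 were higher in the newborn type (Aqp1 and Slc4a4) and 2 in the adult type (Aqp12 and Slc26a6), beside 12.6% and 10% of those probes. Aqp5, Kcnn4 and Ano1 count among the 9 but lie outside the 14503, and the members named here are all among the 6 well-detected ones. The genes had been chosen with this pattern known, so nothing is read from these shares. Leaving out the 8 libraries whose class went against the stage label left the CPM log2 ratios of the 6 well-detected members nearly in place, at 1.93 for Aqp8, -0.32 for Aqp12, 4.15 for Aqp1, 3.81 for Slc4a4, -0.19 for Slc26a6 and 1.79 for Slc12a2. Leaving out the 3 libraries with many probes detected, an alternative added after seeing the data, gave 2.00, -0.36, 3.97, 3.61, -0.25 and 1.90 in the same order.

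**Figure D4:**
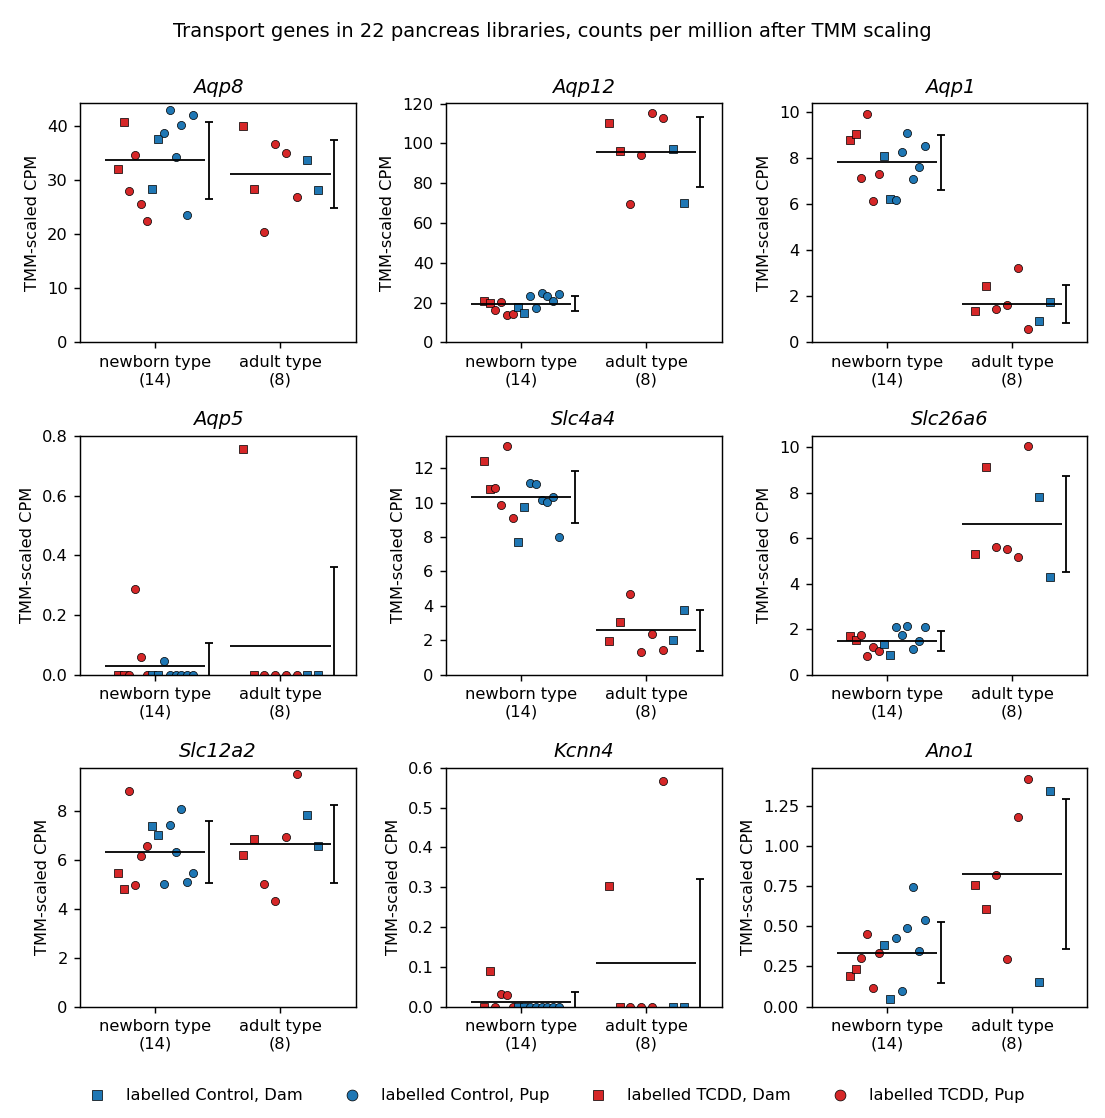
The same libraries and genes in TMM-scaled CPM (linear axis from 0, scale differs by panel), with class means as lines and 1 SD as bars. Aqp12 and Slc26a6 are now higher in all 8 adult-type libraries, Aqp1 and Slc4a4 remain higher in all 14 newborn-type libraries, and Aqp8 and Slc12a2 overlap.

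Inside a class, libraries with a dam label and a pup label were compared by range. Among newborn-type libraries, the 4 labelled Dam read 45.9 to 76.5 CPM for Aqp8 and the 10 labelled Pup 37.0 to 67.2. For Aqp1 they read 7.59 to 17.0 and 9.77 to 17.3 CPM, and for Slc4a4 probe 73086 they read 11.9 to 20.3 and 12.0 to 23.8 CPM. Among adult-type libraries, the 4 labelled Dam read 0.391 to 0.979 CPM for Aqp1 and the 4 labelled Pup 0.233 to 1.15, and Aqp12 read 37.3 to 43.2 and 40.1 to 46.3 CPM. All of these ranges overlapped between stage labels.

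Other genes of fluid and ion transport were read from a list of 78, of which 75 were measured and 31 had a mean of at least 1 CPM. Of these 31, 22 were higher in the newborn type in CPM without overlap, 0 were higher in the adult type and 9 overlapped, with a median log2 ratio of 2.03 beside 1.91 over all probes. The share of all probes higher in the newborn type was 74.4%, so this count is near the background. After TMM scaling 6 were higher in the newborn type, 0 in the adult type and 25 overlapped, with a median of 0.14 beside 0.03, and 12.6% and 10% of all probes were higher in one class or the other. Over all 75 measured genes the counts were 26 and 0 in CPM, and 7 and 1 after TMM scaling. These 75 include genes under a mean of 1 CPM, which the shares above leave out, so the counts cannot be set beside those shares.

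Slc26a9, an epithelial chloride channel and transporter, had the widest gap among them that rests on adult-type counts in more than 1 library, at 6.39 to 21.1 CPM in the newborn type and 0 to 0.416 CPM in the adult type, where 4 of 8 libraries were at 0. Slc26a7, an anion exchanger of its family, read 1.36 to 5.45 and 0 to 0.349 CPM. Atp1b1, a beta subunit of the sodium pump that powers all of this transport, read 7.94 to 18.2 and 0.178 to 1.59 CPM. These 3 stayed without overlap after TMM scaling.

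Kcnk5, a background potassium channel of epithelia, read 3.72 to 8.71 and 0.178 to 0.995 CPM, and Slc4a3, a chloride-bicarbonate exchanger, 1.49 to 3.73 and 0.0651 to 0.498 CPM. Both were likewise apart after TMM scaling. Slc4a8, a sodium-driven chloride-bicarbonate exchanger, held 298 counts over the newborn-type libraries and 0 in all adult-type ones. Aqp4, a water channel best known from brain, held 405 counts and 1.

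Cftr, the apical anion channel of duct cells, was thinly covered, at 14 to 26 counts in newborn-type libraries and 0 to 9 in adult-type ones. It read 0.688 to 1.97 CPM and 0 to 0.523 CPM, which did not overlap, and the log2 ratio of 2.14 lay 0.22 above the median probe. After TMM scaling the ranges overlapped, with a log2 ratio of 0.17. Its class ratio was thus nearer to those of Aqp8 and Slc12a2 than to that of Slc4a4.

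To ask whether the dioxin changed these genes, libraries labelled TCDD were compared with those labelled Control inside each class by the quasi-likelihood test of edgeR over all probes. No member passed. In the newborn type, with 8 and 6 libraries, 0 of 17109 probes passed at an adjusted p of 0.05 (0% of all), 554 had an unadjusted p under 0.05, which is 3.24%, and DESeq2 and limma-voom also called 0. Of the members, 9 probes of 7 genes were tested, 0 of them had an unadjusted p under 0.05, and Aqp5 and Kcnn4 were too low to test. In the adult type, with 2 control dams against 6 libraries labelled TCDD, 0 of 13513 probes passed (0% of all), 388 had an unadjusted p under 0.05, and the other tools called 0. There 8 member probes of 6 genes were tested, Ano1 also being too low.

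Aqp8 in the newborn type read 23.6 TMM-scaled CPM at lowest, 38.2 at the median and 43.1 at highest under the Control label, and 22.5, 30 and 40.8 under the TCDD label. The ranges overlapped, and edgeR gave a log2 fold change of -0.23 ± 0.133 (SE, n = 8 and 6) with an adjusted p of 1. Aqp12 read 14.6, 21.9 and 24.8 against 13.8, 18.2 and 20.8, also overlapping, with -0.23 ± 0.127 and the smallest unadjusted p of the members, 0.0884 by edgeR. Slc4a4 probe 73086 read 7.70, 10.1 and 11.1 against 9.12, 10.8 and 13.3, with 0.18 ± 0.109.

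For the other newborn-type probes the log2 fold change lay between -0.44 for Ano1 (SE 0.470) and 0.29 for Slc26a6 probe 76077 (SE 0.236). The other Slc26a6 probe had the opposite sign, at -0.25 ± 0.236, so the gene gave no steady direction. Aqp1 was at 0.09 ± 0.124 and Slc12a2 at -0.08 ± 0.146.

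In the adult type the 2 control dams, 5 and 7, read 97.1 and 70.3 TMM-scaled CPM for Aqp12, and the 6 libraries labelled TCDD read 69.6 at lowest, 103 at the median and 115 at highest. The ranges overlapped, with a log2 fold change of 0.24 ± 0.203. Aqp8 read 33.8 and 28.3 in the control dams and 20.5, 31.8 and 40.1 under the TCDD label, with -0.01 ± 0.233. Slc26a6 probe 76077 had the largest value, 0.50 ± 0.353 with an unadjusted p of 0.177 and an adjusted p of 1 by edgeR. Aqp1 was at 0.36 ± 0.673 and Slc4a4 at -0.13 ± 0.973 and -0.24 ± 0.533 for probes 71244 and 73086, so that small changes of these genes were not detectable with 2 control libraries at this depth.

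The difference of the TCDD effect between the classes was tested over all 22 libraries, where 0 of 19209 probes passed by edgeR (0% of all), 1523 had an unadjusted p under 0.05 and DESeq2 called 23. Among 10 member probes 0 passed and 0 had an unadjusted p under 0.05. Aqp12 came nearest, with the adult-type effect minus the newborn-type effect at 0.47 ± 0.248 and an adjusted p of 0.662 by edgeR. Of the wider list 0 genes passed in any of these tests. At an unadjusted p under 0.05 there were 4 of 56 probes in the newborn type (Car9, Car4, Slc26a9 and Wnk4), 1 of 37 in the adult type (Car4) and 3 of 65 for the difference (Car4, Kcnk5 and Lrrc26), where 3.24%, 2.87% and 7.93% of all probes had such a p. All adult-type libraries labelled Control were dams and 4 of 6 labelled TCDD carried a pup label, so chemical and stage label are partly mixed there, and only the 2 TCDD dams share the stage label of the controls.

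**Figure D5:**
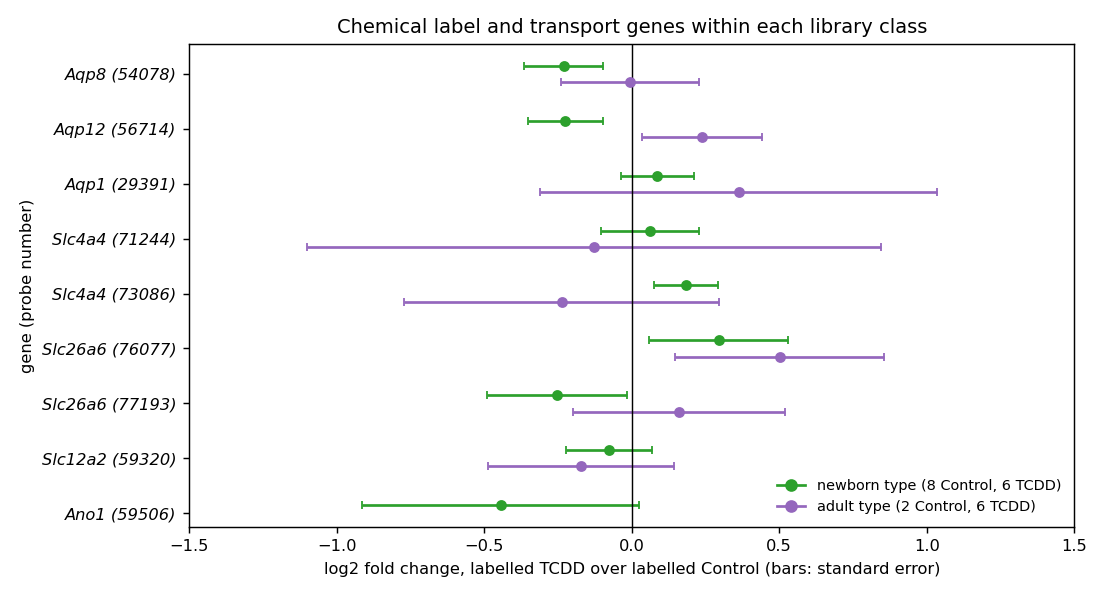
Log2 fold change of libraries labelled TCDD over Control by edgeR for each tested member probe, in the newborn type (8 Control, 6 TCDD) and the adult type (2 Control, 6 TCDD); bars are 1 standard error to either side. Values lie between -0.44 and 0.50, and 0 probes passed the adjusted threshold.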

How the data were processed

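TempO-Seq libraries of whole pancreas were sequenced on an Illumina NextSeq500, per the labels' protocols. The authors deposited raw counts per probe, one column per library, and every column matched a sample title. Per the submitters' processing notes, bcl2fastq 2.17.1.14 made the reads. How they were aligned, and to which build, is not given in the sources used here. CPM were computed from library totals, and TMM-scaled CPM with edgeR 4.0.16 (R 4.3.3). The chemical labels were compared on the deposited counts with edgeR (filterByExpr, TMM, glmQLFit, glmQLFTest, two-sided) and Benjamini-Hochberg adjustment over all probes at 0.05, fitted within each class, with the interaction over all 22 libraries. The code was tested on simulated data. Alternatives were DESeq2 1.42.0, limma 3.58.1 with voom, no low-count filter, counts summed by symbol, groups by stage label and leaving out each library. Classes were described without a test, because they come from the same table. The number in a title marks a dam and her pups, but no litter holds both chemical labels, so it could enter only as a random replicate block. For the 8 libraries whose stage genes go against the title, the litter number may be wrong as well. P-values therefore treat litter mates as separate samples.

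The members, the marker lists and the list of 78 transport genes were chosen with earlier results of these data known. From that list the text names genes whose CPM ranges did not overlap and whose mean reached 1 CPM in the higher class, up to 8 per direction by the size of the ratio, and Cftr. A gene that met this rule is not reported here. For each member with a mean of at least 1 CPM, the 2 genes with the most similar profile were named, from probes whose mean count reached 100, by Pearson r of log2(TMM-scaled CPM + 1) after the class mean was subtracted.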

Additional observations from a re-analysis of the deposited data

Results flagged for a closer look

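Among 33 groups of 4 to 10 libraries that were examined for 1 library far from the rest, 5 held such a library. The usual rate of about 1 in 20 by chance does not hold for probes near 0 counts, to which 3 of the 5 belong. TCDD female pup 11 read 0.502 CPM for Aqp5 from 9 counts, and the other 5 newborn-type libraries labelled TCDD read 0 to 0.105. TCDD dam 11 read 0.297 CPM for Aqp5 from 5 counts, and the other adult-type libraries labelled TCDD read 0. The same dam read 0.475 CPM for Slc4a4 probe 79700 from 8 counts, beside 0 to 0.0640 in the others, and it was also the highest of these libraries for probe 71244, at 0.772 CPM from 13 counts. TCDD female pup 6 read 2.71 CPM for Slc4a4 probe 73086 from 46 counts, beside 0.576 to 1.22 in the other adult-type libraries labelled TCDD. TCDD female pup 8 read 1.26 CPM for Slc26a6 probe 76077 from 24 counts, beside 2.46 to 2.75 in the other newborn-type libraries labelled TCDD. Both Aqp5 values and the value of probe 79700 rest on fewer than 10 counts, and TCDD dam 11 was 1 of the 3 libraries with many probes detected.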

How the results depend on the processing

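The class counts depend on scaling: members without overlap numbered 4 and 0 (newborn higher, adult higher) in CPM and 2 and 2 under TMM scaling and under the size factors of DESeq2, where the log2 ratio of Slc12a2 turned to -0.074 and -0.017. Aqp12, Slc26a6 and Slc12a2 lay under the median probe on all 3 scales and Aqp8, Aqp1 and Slc4a4 above it. For the chemical labels, 0 member probes passed under any setting. With the replicate block in limma-voom 0 probes passed in either class, as without it. Correlations within a title number, which may not be the true litter, were 0.0129 (newborn type) and 0.0706 (adult type). In the adult type the probes called rose from 0 to 112 without the low-count filter and ranged from 0 to 2 when each library was left out, the 2 coming without control dam 5, where 1 control library remained and was assumed to vary like the TCDD group. With the libraries of many detected probes left out, an alternative added after seeing the data, 0 passed in either class. For the difference between classes DESeq2 called 23 and the unfiltered fit 9; the cause was not tested. With all libraries labelled Pup, which mixes both classes, the signs of uncalled log2 fold changes turned for Aqp12 (1.34), Aqp1 (-0.68), Slc4a4 (-0.56), Slc26a6 (1.05) and Slc12a2 (0.069), and with newborn-type libraries labelled Pup for Aqp1 (-0.024) and Slc12a2 (0.10). In the adult type Aqp8 turned to 0.002 with DESeq2, 0.14 with all libraries labelled Dam and 0.12 with adult-type libraries labelled Dam, and Slc4a4 to 0.28 with all labelled Dam. Leaving out single adult-type libraries, which leaves 1 control where control dam 5 or 7 is left out, gave -0.11 to 0.10 for Aqp8, -0.021 to 0.91 for Aqp1, -0.62 to 0.30 for Slc4a4 and -0.20 to 0.62 for Slc26a6. Depth limits Aqp5, Kcnn4 and Ano1 in both classes, and Aqp1 and Slc4a4 in the adult type, where 4 to 50 counts a library carry the value.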

Other observations

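Profiles across libraries were compared after each class mean had been subtracted, so that the class difference does not enter. These correlations are descriptions over 22 libraries that share sequencing depth and scaling. Aqp12 ran closest to Cog6 (r = 0.905), a subunit of the Golgi tethering complex, and to Psmd6 (r = 0.852), a proteasome subunit. Aqp8 ran closest to Snx4 (r = 0.822), an endosomal sorting nexin, and Cnbp (r = 0.808), a nucleic acid binding protein. Slc4a4 ran closest to Nid1 (r = 0.837), a basement membrane protein, and Pip4k2a (r = 0.759), a lipid kinase. These values were lower over the newborn-type libraries (0.639 and 0.675) than over the adult-type ones (0.914 and 0.786), where the Slc4a4 probe had only 9 to 46 counts.

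Aqp1 ran closest to Smim19 (r = 0.777) and Dusp12 (r = 0.751), and in both cases the value was lower over the 14 newborn-type libraries (0.485 and 0.425) than over the 8 adult-type ones (0.887 and 0.880). Slc12a2 ran closest to Vamp7 (r = 0.760), a vesicle fusion protein, and Fbxo30 (r = 0.744), and Slc26a6 to Dbt (r = 0.717) and Isoc2a (r = 0.714). Of the 3 pairs formed by class ratio, Aqp12 with Slc26a6 had r = 0.490 (0.563 newborn type, 0.418 adult type), Aqp1 with Slc4a4 had 0.199 (-0.240 and 0.351) and Aqp8 with Slc12a2 had -0.064 (-0.085 and -0.033). Pairs that shared a class ratio thus did not in general vary together inside a class. Across pairs Aqp12 with Aqp8 had 0.553 (0.505 and 0.642) and Aqp12 with Slc4a4 had -0.473 (-0.171 and -0.775).

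Summed intestinal epithelium markers (Vil1, Fabp2, Lgals4, Cdx1 and Cdx2) stood at 392 CPM at highest among the newborn-type libraries, where the median was 36.4, and were above 100 in control male pup 4 and TCDD male pup 6. These libraries also had the lowest Aqp8 values, 37.0 and 40.7 CPM, beside 44.0 to 76.5 in the other 12. Aqp8 is expressed in the colon as well as in the pancreas. In an alternative added after seeing the data that left both out, the log2 class ratio of Aqp8 in CPM was 2.08 in place of 2.01, and the part of intestinal RNA in its level was not tested.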
